A study of Mus musculus with 4 samples.

Results

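Brain endothelial cells were picked out of single-cell RNA libraries of the mouse prefrontal cortex (PFC) at P1, P4, P10 and in adult mice (P84). A cell was kept if it had at least 1000 unique molecular identifiers (UMIs, each marking 1 captured RNA molecule), at least 1000 detected genes and at most 15% mitochondrial UMIs. It was taken as endothelial if Cldn5, Flt1, Pecam1, Slco1a4 and Ly6c1 together reached 15 UMIs per 10000, if at least 3 of these 5 genes were detected, and if Pdgfrb, a receptor of mural cells, stayed below 2 UMIs per 10000. This gave 1422 endothelial cells among 59918 cells, made up of 65 P1, 190 P4, 406 P10 and 761 adult cells.

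Every age was a single BD Rhapsody library of PFC tissue from C57BL/6J mice, untreated, with the same digestion in protease and papain after the brain slices had been moved to a buffer that held the transcription inhibitor Actinomycin D. The methods state that the animals were female and that 2 mice were used at each age, and cells were not assigned to mice here. Each age is therefore 1 sample, so differences between ages have no replicate check and no test was made. Levels are UMIs summed over the endothelial cells of an age per 1000000 (CPM), leaving out mitochondrial and ribosomal protein genes, and all intervals are exact at the 95% level and cover counting error only.

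The P1 library stood apart from the others. Its file header names version 1.11 of the BD pipeline, where the other headers name version 1.8, and it gives the library the name P0. Y-linked genes reached 180.6 CPM in the endothelial cells of P1, against 0, 0 and 0.427 CPM at the later ages. Of the 65 endothelial cells of P1, 38 had a UMI of a Y-linked gene, 40 had one of Xist and 14 had both, whereas the animals are given as female. Each age is 1 library, so age and library cannot be told apart at any step. At P1 the pipeline version and the Y-linked RNA differ too, so the comparisons below cover the steps P4 to P10 and P10 to adult. P1 is given beside them. Between pairs of libraries 12 to 368 cell barcodes were shared, but no barcode was shared between endothelial cells of different libraries.

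Endothelial cells line the blood vessels. In the brain they are sealed to each other by tight junctions, take up nutrients through dedicated transporters, pump drugs back into the blood and carry little across in vesicles, which together form the blood-brain barrier. Cortical vessels keep sprouting and branching after birth under the control of VEGF, Notch, apelin and angiopoietin signals, while Wnt/β-catenin signaling keeps barrier genes on, and in the adult this network is quiescent.

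The 5 genes of the rule chose the cells, and their levels are given only as a description. Cldn5, the main claudin of brain tight junctions, had 3691 CPM at P1, 3647 CPM at P4, 3485 CPM at P10 and 2893 CPM in the adult, and Pecam1, an adhesion molecule of all endothelium, ranged from 969 to 1057 CPM. Slco1a4, an organic anion transporter of the barrier, had 6.67, 156, 634 and 2102 CPM in this order of ages. Ly6c1, whose reads may be shared with the near-identical Ly6c2, went from 540 to 3268 CPM. All 5 genes were thus detected in 4 of the P1 cells, 62 of P4, 245 of P10 and 714 of the adult, and the median sum of the rule genes went from 62.4 per 10000 UMIs at P1 to 169.5 in the adult. The lowest cell inside the threshold had 21.24, 15.66, 15.02 and 15.12 per 10000 by age, while the highest outside had 14.35, 13.95, 14.71 and 14.96. A further 13, 27, 76 and 88 cells met the 5-gene condition in this order of ages and were left out by Pdgfrb.

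Genes outside the rule matched the name at every age. All 28 endothelial identity genes had at least 2-fold higher CPM in the chosen cells than in all other cells of the same library at each of the 4 ages, where 23.9% of the 8175 genes compared did so at P1, P4 and P10 and 19.2% in the adult. Cdh5, the cadherin of endothelial junctions (chromosome 8:104101625-104144511, plus strand, GRCm38), had 565 CPM at P1, 543 CPM at P4, 456 CPM at P10 and 404 CPM in the adult, against at most 1.85 CPM in other cells at P10 and in the adult. Tek, the angiopoietin receptor, Robo4, a guidance receptor of vessels, and Erg, a transcription factor of endothelium, were among the 15 genes outside the rule whose margin over other cells was largest at the age where it was smallest. That smallest margin was 7.88 on the log2 scale for Tek and 7.72 for Erg. Of 5 lymphatic markers, Lyve1 stayed between 0.427 and 2.84 CPM and Prox1 between 4.85 and 24.3 CPM, while Flt4, a VEGF receptor that is not limited to lymphatic vessels, had 179, 167.5, 165 and 95.8 CPM. In the list of choroid plexus and fenestrated endothelium Ttr was at 0 at every age, but Plpp3, a lipid phosphatase, reached 288 CPM in the adult.

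The endothelial share of cells was higher at each later age. P1 had 0.563% (0.435 to 0.717), P4 0.999% (0.863 to 1.15), P10 2.66% (2.41 to 2.93) and the adult 5.40% (5.03 to 5.79). The intervals do not overlap. The share reads how many cells of each type came through the digestion as well as how many there were, which cannot be told apart here. The cells were also shallower at later ages, with a median of 27404, 12928.5, 7201 and 4798 UMIs by age, against 25783, 12039.5, 18497.5 and 11883.5 in the other cells. Scrublet, which scores cells that look like mixtures, marked 12.3%, 20.5%, 14.5% and 19.6% of the endothelial cells, above the 5.22% to 9.499% of the other cells, and the marked cells were kept.

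**Figure D1:**
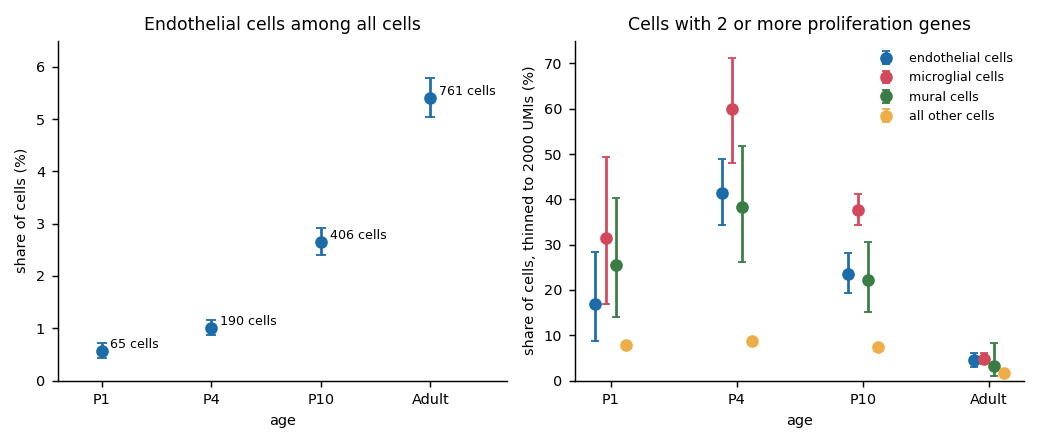
The left panel plots the endothelial share of all filtered cells (percent) at each age with its exact binomial interval. The right panel plots the share of cells with UMIs of at least 2 proliferation genes after thinning to 2000 UMIs in endothelial, microglial, mural and all other cells, and the endothelial share is 41.5% at P4 and 4.44% in the adult.

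RNA of other cell types was present in the endothelial cells and moved with age. The summed level of 15 neuronal genes in them was 1051 CPM at P1, 3751 CPM at P4, 6736 CPM at P10 and 10064 CPM in the adult, or 11.3%, 25.8%, 32.7% and 49.5% of the level in all other cells, and none of the 15 genes was 2-fold higher than there. Mural genes summed to 3092, 5201, 4617 and 2820 CPM, and per cell their median was 94.1 CPM at P1, 2920 CPM at P4, 1881 CPM at P10 and 289 CPM in the adult. Microglial genes went from 67.3 CPM at P1 to 1019 CPM in the adult, with 6 of the 14 genes at 0 at P1, C1qa and Tmem119 among them. Astrocyte genes went from 616 CPM at P1 to 2666 CPM in the adult, and oligodendrocyte genes from 93.9 to 2330 CPM. Hemoglobin and other red cell genes went the other way, from 19362 to 4571 CPM, and were at 0 in 55.4% of the endothelial cells at P1 and 79.4% in the adult. The part of this RNA in the results below was not tested beyond the values given with them.

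**Figure D2:**
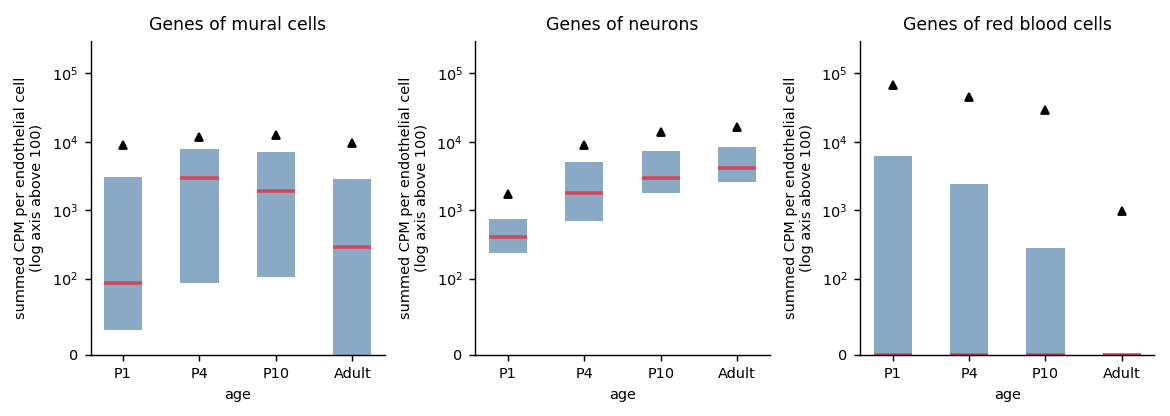
Summed CPM of mural, neuronal and red cell genes in single endothelial cells by age, with the quartiles as a bar, the median as a red line and the 90th percentile as a triangle. The mural median is highest at P4 (2920 CPM), the neuronal median rises with age, and the red cell median is 0 at every age.

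Of 8175 genes with a mean of at least 20 CPM over the ages, 401 (4.91%) were higher by at least 2-fold at P10 than at P4 and 57 (0.697%) were lower. The latter count was 291 with thinned cells and 182 in cells with mural genes below 500 CPM (69 cells at P4 and 154 at P10). Both sets hold fewer UMIs, and the part of counting error in these higher counts was not tested. From P10 to the adult, 669 genes (8.18%) were higher and 600 (7.34%) lower by that factor. The median log2 ratio of all these genes was -0.01 for the first of these steps and -0.02 for the second. The groups of genes below are read against these shares. The filter is on a mean over ages, so a gene high at 1 age alone can pass through that age, and the counts below describe the listed genes that passed and not whole lists.

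Genes of dividing cells were highest in the P4 library, and each step between ages is also a change of library and, from P1, of pipeline version. The 27 listed proliferation genes, of which 18 passed the filter, summed to 814.5 CPM at P1, 2146 CPM at P4, 1138 CPM at P10 and 193 CPM in the adult, and over the same ages to 668, 481, 273 and 115 CPM in the other cells. From P4 to P10, 11 of the 18 were lower by at least 2-fold and none was higher (median log2 ratio -1.04). In the cells with mural genes below 500 CPM that median was -0.61, short of 2-fold. From P10 to the adult, 17 of 18 were lower, with a median of -4.24. Mki67, the antigen of cycling nuclei (chromosome 7:135689784-135716361, minus strand), had 36.4 CPM at P1, 153 CPM at P4, 70.8 CPM at P10 and 0.213 CPM in the adult, where it rested on 1 UMI, so its log2 ratio of -8.37 has an interval from -13.68 to -5.88. Top2a, the topoisomerase that untangles replicated chromosomes, followed the same course with 67.9, 201, 83.1 and 0.64 CPM, and Cdk1, the kinase that drives entry into mitosis, with 66.7, 128, 77.7 and 0.64 CPM. The 9 listed genes that did not reach the filter were also lower in the adult by at least 2-fold, and 15 of the 18 that did were under 20 CPM there. Pcna, the clamp of replicating and repairing DNA polymerases, was the exception in the adult. It had 83.0, 179, 106 and 68.9 CPM, a log2 ratio of -0.62 from P10 to the adult.

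The share of endothelial cells that carried UMIs of at least 2 of these genes was compared with all cells thinned to the same 2000 UMIs, so that 2 shallower cells of P4, 31 of P10 and 18 of the adult were not used. P1 had 11 of 65 such cells (16.9%, 8.76 to 28.3), P4 had 78 of 188 (41.5%, 34.4 to 48.9), P10 had 88 of 375 (23.5%, 19.3 to 28.1) and the adult had 33 of 743 (4.44%, 3.08 to 6.18). In this draw the P4 interval lies above the other 3. Mural genes were below 500 CPM in 69 cells of P4 and 154 of P10. Of those with at least 2000 UMIs the share was 27.5% at P4 and 18.3% at P10. No intervals were computed for these smaller sets, so a separation of P4 is not shown for them. Mural genes had their highest median per cell at P4. Without the cells that Scrublet marked the share was 33.3% at P1, from a separate draw whose part in this was not tested. In all 65 cells of P1 the value depended on the draw. Over 20 draws it ranged from 13.8% to 29.2% with a mean of 21.6%, against 39.4% to 47.3% at P4. In all other cells the share was 7.83%, 8.76%, 7.51% and 1.76%. The genes of the list differed at P1. There Hmgb2 was seen in 27.7% of endothelial and 6.25% of other cells, Pcna in 12.3% and 13.1%, and Mki67 in 3.08% and 3.31%. At P1, 4 of the 18 tested genes had at least 2-fold higher CPM than in other cells, and at P4 17 did. Of all genes 23.9% did so at either age. Microglia, picked by their own 5 markers, had a like course of the share with 31.4%, 60.0%, 37.7% and 4.77%, and so had mural cells with 25.5%, 38.3%, 22.1% and 3.31%. These mural cells carried endothelial RNA. The 28 endothelial identity genes summed in them to 8731, 14067, 18345 and 14978 CPM by age. In the endothelial cells the sums were 19347, 20400, 22880 and 20926 CPM. The part of this RNA in the mural share was not tested. Without thinning the endothelial shares were 92.3%, 83.0%, 64.5% and 26.5%. After thinning, Mki67 itself was seen in 26 of 188 cells at P4 and in 0 of 743 in the adult. The latter allows up to 0.404% of cells with a UMI at this depth by a rule of 3 counts of the total. This bound is tighter than the exact interval used for the other shares. It does not limit the share of cells that express the gene.

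Most sprouting genes were within 2-fold from P4 to P10 and lower in the adult. Of 19 tip cell and sprouting genes that passed of 22 listed, 1 was higher and none lower by 2-fold from P4 to P10 (median log2 ratio -0.10), whereas 15 were lower and none higher from P10 to the adult (median -2.15). This list holds Col4a1, Col4a2, Nid2, Lamb1 and Sparc, matrix genes that also stand in the basement membrane list below. The summed level, with these matrix genes included, was 14127 CPM at P1, 16093 CPM at P4, 15125 CPM at P10 and 3598 CPM in the adult. In the mural cells picked by their own markers it was 13543, 17667, 17090 and 4366 CPM. These cells carried endothelial RNA, as given above, and its part in their sums was not tested. Apln, the apelin peptide that tip cells release (chromosome X:48025146-48034853, minus strand), had 194 CPM at P1, 645 CPM at P4, 871 CPM at P10 and 12.4 CPM in the adult, a log2 ratio of -6.14 (-6.54 to -5.76) over the last step. Aplnr, its receptor and 1 of 3 genes lower among 18 receptors of VEGF, angiopoietin, TGF-β and apelin signals (none was higher, median -0.63; chromosome 2:85136225-85139923, plus strand), had 608, 263, 245 and 1.71 CPM, a log2 ratio of -7.17 (-8.38 to -6.18). Receptor and ligand differed in their order, since Aplnr was highest at P1 and Apln at P10, and both were low in adult cells. For Aplnr that order rests on the P1 library, since it stayed within 2-fold from P4 to P10. At 2000 UMIs per cell, Apln was seen in 44.5% of endothelial cells at P10 and 2.02% in the adult, where 6.99% of the other cells had it, so the adult share does not exceed the background. Aplnr was seen in 32.3% and 0.269%.

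Other genes of this list differed in size and timing. Angpt2, the ligand that loosens vessels through Tek, was the one that was higher at P10, with 6.06 CPM at P1, 18.1 CPM at P4, 61.9 CPM at P10 and 7.04 CPM in the adult (log2 ratios 1.77 and -3.14). Cxcr4, a chemokine receptor of tip cells, had 69.7, 137, 118 and 5.97 CPM, a log2 ratio of -4.31 (-4.92 to -3.75) from P10 to the adult. Dll4, the Notch ligand of tip and arterial cells, had 228, 216, 177 and 105 CPM, and Pdgfb, which draws pericytes to new vessels, 327, 250.5, 227 and 245 CPM. These 2 stayed within 2-fold from P10 to the adult (log2 ratios -0.75 and 0.11). The other receptors that were lower were Kdr and Plxnd1. Kdr, the main VEGF receptor, was at 1718, 1340, 1439 and 705 CPM, a log2 ratio of -1.03 that ranged from -1.12 to -0.72 over alternatives. Plxnd1, a semaphorin receptor of vessels, had 274, 237, 210.1 and 47.4 CPM (-2.15), and Ptprb, the phosphatase that restrains Tek, had 767, 873, 1388 and 2103 CPM, higher at each later age but by less than 2-fold per step.

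The basement membrane genes followed. Of 19 genes of basement membrane and integrins that passed of 21 listed, 13 were lower and none higher by 2-fold from P10 to the adult (median log2 ratio -1.90), after 1 was lower and none higher from P4 to P10 (median 0.01). Col4a1, a chain of type IV collagen (chromosome 8:11198423-11312826, minus strand), had 1995 CPM at P1, 1928 CPM at P4, 1462 CPM at P10 and 393 CPM in the adult, a log2 ratio of -1.90 (-1.98 to -1.82). Nid1, the linker of collagen and laminin networks, had 1094, 1303, 1175 and 110.3 CPM (-3.41), and Lama4, a laminin chain of endothelium, 707, 521, 469 and 78.3 CPM (-2.58). Sparc, a collagen-binding matrix protein, had 6623, 8128, 7790 and 1562 CPM (-2.32). Among the integrins, Itga4 had 332, 319, 345 and 51.4 CPM (-2.75), while Itga6, a laminin receptor subunit, had 290.3, 161, 265 and 504 CPM (0.93), within 2-fold. Col18a1, the source of endostatin, was the gene of the list already lower at P10, with 122, 300.2, 114 and 11.7 CPM. Mural cells make many of these proteins too, and mural genes were themselves lower in the adult for 6 of 12 tested and higher for 1. In the endothelial cells with mural genes below 500 CPM the median of the basement membrane list from P10 to the adult was -2.18.

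**Figure D3:**
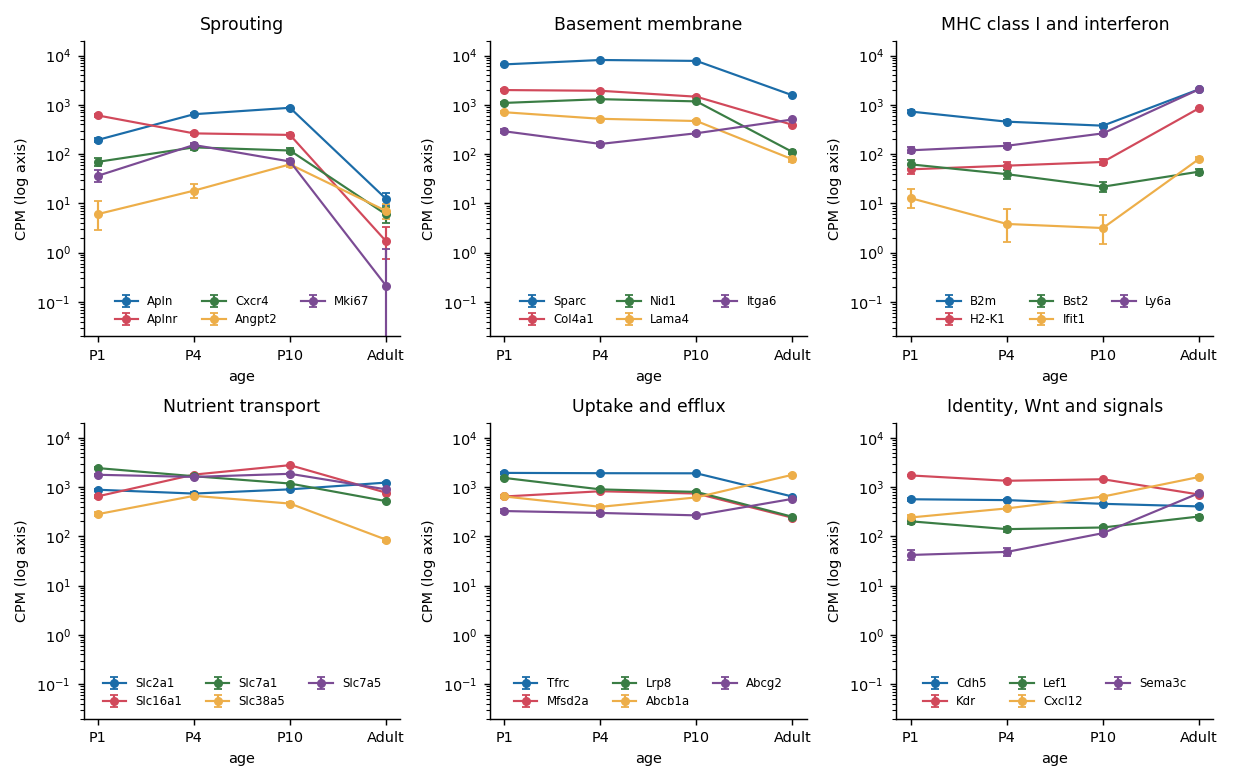
Summed CPM (log axis) of selected genes in endothelial cells at P1, P4, P10 and in the adult, with exact Poisson intervals, in 6 panels by role. Apln, Aplnr, Cxcr4 and Mki67 drop between P10 and the adult, Sparc, Col4a1, Nid1 and Lama4 drop less, and B2m, H2-K1, Ifit1, Ly6a, Abcb1a and Sema3c are highest in the adult.

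Nutrient transporters had mixed courses. Of 22 solute transporters, none passed 2-fold from P4 to P10, and 5 were lower and 1 higher from P10 to the adult (median log2 ratio -0.51). Slc16a1, which carries lactate and ketone bodies (chromosome 3:104638668-104658462, plus strand), had 648 CPM at P1, 1788 CPM at P4, 2778 CPM at P10 and 768 CPM in the adult. It was lowest at P1, highest at P10 and lower by 1.86 on the log2 scale in the adult (log2 ratio -1.86, -1.91 to -1.80). Slc2a1, the glucose transporter of the barrier, had 881, 737, 898 and 1230 CPM and stayed within 2-fold (0.45). Of the 5 that were lower, 3 carry amino acids. Slc7a5, the large neutral amino acid transporter, had 1773, 1604, 1855 and 896 CPM (-1.05), Slc7a1, for cationic amino acids, 2423, 1657, 1178 and 517 CPM (-1.19), and Slc38a5, for glutamine and its kin, 282, 663, 462 and 85.5 CPM (-2.43). Slc39a8, a zinc and manganese importer, had 1095, 749.7, 541 and 167 CPM (-1.69). Over alternatives the ratio of Slc7a5 ranged from -1.16 to -0.66 and that of Slc7a1 from -1.42 to -0.93. Slc19a3, the thiamine transporter, was the one that was higher, with 57.6, 35.8, 67.9 and 171 CPM (1.33).

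Efflux pumps were few and mixed. Of 5 ABC pumps, 2 were higher and 1 lower by 2-fold from P10 to the adult. Abcb1a, the P-glycoprotein that returns drugs to the blood (chromosome 5:8660077-8748575, plus strand), had 643 CPM at P1, 396 CPM at P4, 616 CPM at P10 and 1775 CPM in the adult, a log2 ratio of 1.53 (1.45 to 1.60). Its close copy Abcb1b may share reads with it. Abcg2, a second drug pump, had 326, 298, 266 and 576 CPM (1.11), and Abcc6 had 37.6, 9.54, 25.9 and 8.74 CPM (-1.57). At 2000 UMIs per cell, Abcb1a was seen in 62.9% of endothelial cells at P10 and 91.9% in the adult.

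Of 13 genes of vesicular transport and uptake, 3 were lower and none higher from P10 to the adult, while the median log2 ratio of the list was 0.31. Mfsd2a, the lipid carrier that keeps vesicle traffic low (chromosome 4:122946850-122961188, minus strand), had 643 CPM at P1, 821 CPM at P4, 738 CPM at P10 and 238 CPM in the adult, a log2 ratio of -1.63 (-1.74 to -1.53). Tfrc, the transferrin receptor that brings in iron, had 1936, 1909, 1899 and 641 CPM (-1.57), and Lrp8, a receptor of apolipoprotein E and reelin, 1530, 896, 796 and 249 CPM (-1.68). Cav1, the caveolae coat, had 579, 301, 236 and 294 CPM, and Plvap, which marks leaky endothelium, stayed at 5.46 to 10.5 CPM. Few junction genes passed 2-fold. Of 17 tested, 1 was lower from P10 to the adult and also from P4 to P10, the connexin Gja4 of arterial cells (87.9, 159, 67.0 and 18.8 CPM, log2 ratios -1.83 and -1.25), while the occludin gene Ocln had 182, 121, 146 and 209 CPM and Tjp1, a scaffold of tight junctions, 901, 514, 502 and 596 CPM.

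Most Wnt genes stayed within 2-fold. Of 22 tested, 2 were higher and 2 lower from P10 to the adult (median log2 ratio -0.21), shares near those of all genes. Reck, which with Gpr124 presents Wnt7 to its receptor, had 17.6 CPM at P1, 11.9 CPM at P4, 19.6 CPM at P10 and 108 CPM in the adult (2.47), and Axin2, a feedback target of the pathway, 93.9, 50.1, 38.5 and 96.8 CPM (1.33). Apcdd1, a Wnt antagonist of brain vessels, had 417, 341, 299.5 and 93.8 CPM (-1.67), and Ppard, a nuclear receptor, 264, 165, 159.5 and 79.8 CPM, just past 2-fold. Lef1, the transcription factor that acts with β-catenin, had 201, 139.8, 151 and 252 CPM, within 2-fold. Foxq1 and Foxf2, forkhead factors of brain endothelium, ended at 377 and 239.7 CPM after 381 and 246 CPM at P10.

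Most MHC class I genes were higher in adult cells. From P10 to the adult all 10 genes of MHC class I and antigen processing that passed of 16 listed were higher by at least 2-fold (median log2 ratio 2.40), after 1 was higher and none lower from P4 to P10 (median 0.25). All 16 listed genes summed to 1298 CPM at P1, 935 CPM at P4, 904 CPM at P10 and 5034 CPM in the adult, and in the other cells to 100, 127, 191 and 493 CPM. B2m, the light chain of all class I molecules (chromosome 2:122147686-122153083, plus strand), had 729.7 CPM at P1, 455 CPM at P4, 378 CPM at P10 and 2064 CPM in the adult, a log2 ratio of 2.45 (2.36 to 2.54). H2-K1, a classical heavy chain that presents peptides to CD8 T cells (chromosome 17:33996017-34000347, minus strand), had 49.1, 58.2, 69.2 and 851 CPM, a log2 ratio of 3.62 (3.42 to 3.82). H2-D1, the other classical heavy chain, had 306, 272, 266 and 1233 CPM (2.21), and H2-Q7 was at 0, 0, 0.316 and 96.2 CPM, where P10 rests on 1 UMI (log2 ratio 8.25, 5.76 to 13.56). Of the 6 listed genes below the filter, 5 were higher and H2-M3 was within 2-fold (0.32), and 5 of the 10 above it were under 20 CPM at P10. Class I heavy chains are near-identical in places, so counts of H2-K1, H2-D1 and the H2-Q genes may be split between them.

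H2-K1 was also found in more of the cells. At 2000 UMIs per cell, H2-K1 was seen in 7.69%, 9.57%, 10.9% and 74.8% of endothelial cells from P1 to the adult, while in the other cells it was 0.671%, 1.01%, 3.22% and 13.9%. B2m was seen in 70.8%, 48.9%, 49.9% and 91.4%. Microglia, whose RNA was also more abundant in adult endothelial cells, had B2m at 1228 CPM at P10 and 3090 CPM in the adult. H2-K1 in microglia was 657 CPM in the adult, below the 851 CPM of the endothelial cells. Mural comparator cells, which themselves carried endothelial RNA (Cdh5 at 223 to 327 CPM), went from 41 to 651 CPM of H2-K1. In the endothelial cells with mural genes below 500 CPM the median of the MHC list from P10 to the adult was 2.56.

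Most interferon-responsive genes that passed the filter were higher in the adult as well. Of 20 that passed of 25 listed, 17 were higher and none lower by 2-fold from P10 to the adult (median log2 ratio 1.79), after 1 was lower and none higher from P4 to P10 (median -0.12). The 5 below the filter were higher as well, and 8 of the 20 were under 20 CPM at P10. Ifit1, which binds foreign RNA, had 12.7 CPM at P1, 3.82 CPM at P4, 3.16 CPM at P10 and 79.5 CPM in the adult (4.65, 3.76 to 5.73), and Gbp2, a guanylate-binding protein, 26.7, 14.8, 16.1 and 115 CPM (2.84). Isg15, a ubiquitin-like modifier, had 30.3, 13.4, 5.37 and 62.7 CPM and was the gene that was lower at P10. Bst2, which tethers budding virus, had 61.8, 39.1, 21.8 and 43.9 CPM, so its adult level is below that of P1 (log2 ratio 1.01 from P10, 0.88 to 1.49 over alternatives). Ifitm1 went against the group, though within 2-fold, with 48.5, 34.8, 31.9 and 19.2 CPM (-0.73). Ly6a, a surface antigen of vessels, had 119, 148, 264 and 2060 CPM (2.97).

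The promoters of some of these genes hold short motifs known from immune genes, and 60-base stretches with them are shown for genes whose levels are given above. The sequences are RefSeq promoters of GRCm38.p6, taken from 250 bases before to 50 after the start of a gene, and were searched on both strands. Capitals mark the motif. In the first 3 promoters this is the enhancer A type of NF-κB site, exactly the capital letters shown, and in the other 3 it is a core of the interferon-stimulated response element, GAAA and again GAAA with any 2 bases between them, or the reverse complement of this. H2-K1 is read on the minus strand from chr17:34000424-34000483, H2-D1 on the plus strand from chr17:35262898-35262957, H2-Q7 on the plus strand from chr17:35438997-35439056, B2m on the plus strand from chr2:122147523-122147582, Bst2 on the minus strand from chr8:71537562-71537621 and Ifit1 on the plus strand from chr19:34640779-34640838. All 6 stretches lie upstream of the RefSeq start of their gene, and that of H2-D1 lies inside the gene as GENCODE M21 annotates it, from position 35262730.
H2-K1: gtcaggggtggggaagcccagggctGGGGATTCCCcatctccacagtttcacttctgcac
H2-D1: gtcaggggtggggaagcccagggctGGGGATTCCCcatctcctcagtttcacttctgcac
H2-Q7: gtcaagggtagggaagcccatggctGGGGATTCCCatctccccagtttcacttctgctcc
B2m: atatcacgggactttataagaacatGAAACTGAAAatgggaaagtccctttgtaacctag
Bst2: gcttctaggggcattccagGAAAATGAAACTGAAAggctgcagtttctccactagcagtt
Ifit1: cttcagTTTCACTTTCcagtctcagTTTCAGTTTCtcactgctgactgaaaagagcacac
Bst2 and Ifit1 hold 2 matches each, which overlap in Bst2. The interferon core was in 10 of 15 promoters of tested interferon genes and 3 of 10 of the MHC list, against 3.99% of 27025 promoters, and in none of the 14 of the sprouting list or the 14 of the basement membrane list. The enhancer A motif was in 3 of 10 promoters of the MHC list, against 0.126% of all promoters. A match describes these letters and shows no binding. Forms of these elements with other letters were neither searched for nor marked, also in the H2 promoters shown, so a promoter without a match may hold one.

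**Figure D4:**
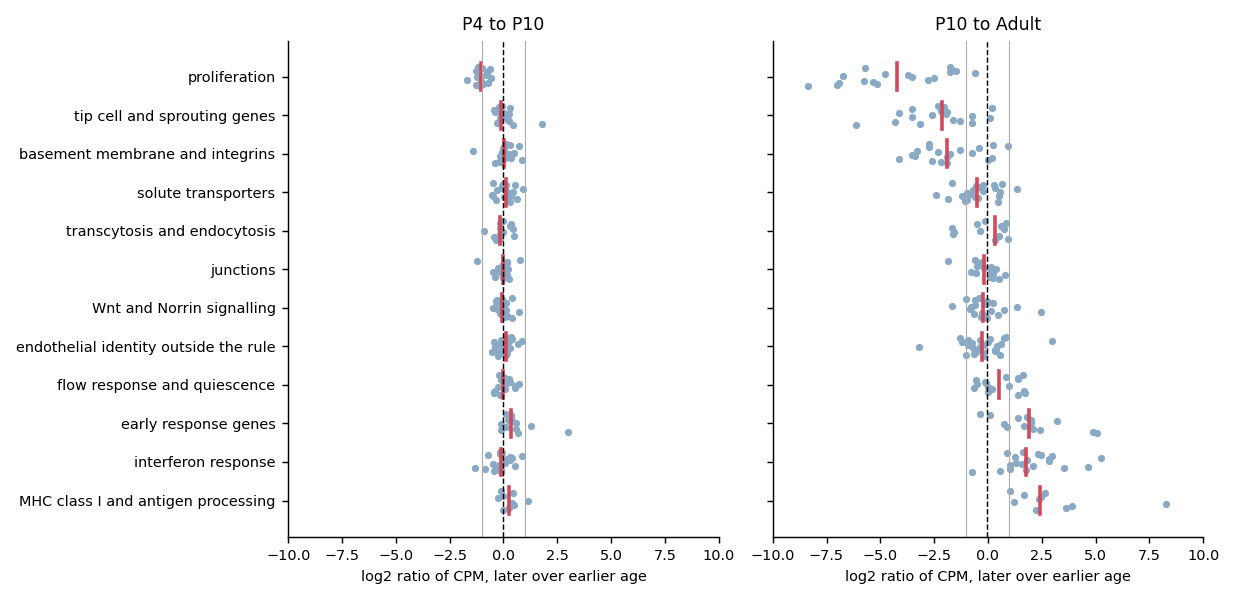
Each point is the log2 ratio of 1 tested gene in endothelial cells for the steps P4 to P10 and P10 to adult, grouped in 12 lists, with the median of a list as a red bar, the median of all 8175 genes as a dashed line and 2-fold as grey lines. From P10 to the adult the medians of the proliferation, sprouting and basement membrane lists lie below the lines and those of the MHC, interferon and early response lists above.

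Some flow response genes and most early response genes that passed the filter were also higher in the adult. Of 16 genes of the flow response that passed of 17 listed, 6 were higher and none lower (median log2 ratio 0.51). Klf2 and Klf4, transcription factors induced by shear, had 327, 224, 202 and 527 CPM (1.38) and 127, 159, 117 and 382 CPM (1.70), and Thbd, the thrombin-binding thrombomodulin, 53.9, 58.7, 44.9 and 142 CPM (1.67). Of 14 early response genes that passed of 18 listed, 10 were higher and none lower (median 1.92). Of the 4 below the filter, 3 were higher and 1 was within 2-fold, and 2 of the 14 were under 20 CPM at P10. Fos, an immediate early factor, had 1.21, 6.68, 10.7 and 365 CPM (5.09), and Jun, its partner, 108, 104, 97.9 and 529 CPM (2.43). In the other cells Fos was at 1.29, 6.54, 36.8 and 51.2 CPM. At 2000 UMIs per cell it was seen in 36.3% of adult endothelial cells and 1.33% at P10. By the methods the brains were sliced before they met Actinomycin D. The part of slicing and digestion in the levels of these genes was not tested.

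Signals from endothelial cells to their neighbours included genes that were higher at every later age. Of 18 that passed of 29 listed, 4 were higher and 2 lower from P4 to P10, and 4 were higher and 1 lower from P10 to the adult. Cxcl12, the chemokine ligand of Cxcr4, had 241 CPM at P1, 368 CPM at P4, 640.1 CPM at P10 and 1599 CPM in the adult (log2 ratios 0.80 and 1.32, the latter 0.82 in cells with mural genes below 500 CPM). Sema3c, a secreted guidance cue (chromosome 5:17574281-17730268, plus strand), had 41.8, 48.2, 116 and 750.5 CPM (1.27 and 2.69), and was seen at 2000 UMIs per cell in 19.7% of endothelial cells at P10 and 72.7% in the adult. Ctgf, a matricellular protein, was highest at P10 with 40.6, 34.8, 106 and 45.9 CPM.

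Imprinted growth genes were among the ones that were lower early. From P4 to P10, 3 of 12 that passed were lower and 2 higher. Dlk1, a non-canonical Notch ligand, had 107 CPM at P1, 44.9 CPM at P4, 7.27 CPM at P10 and 6.61 CPM in the adult (log2 ratio -2.63 from P4 to P10), Mest 196, 184, 48.0 and 26.0 CPM (-1.94) and Plagl1, a zinc finger factor, 104, 43.0, 18.3 and 10.02 CPM (-1.23). In the mural comparator cells Dlk1 was higher than in the endothelial ones before P10, with 929.0 CPM at P1, 94.8 CPM at P4 and 8.38 CPM at P10, and the part of mural RNA in its endothelial values was not tested. Impact, a translational regulator, went up with 18.2, 19.1, 44.2 and 203 CPM.

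The genes with the largest changes included members of the groups above and others. Among the rises from P10 to the adult was Xdh, xanthine dehydrogenase, at 0, 0, 0.316 and 117 CPM, where the floor of 3 UMIs is 1.82 CPM at P1 and 1.43 CPM at P4 (log2 ratio 8.53, 6.05 to 13.84, with 1 UMI at P10), and Alpl, alkaline phosphatase, had 0, 2.86, 5.37 and 114 CPM (4.41). Among the falls was Ackr2, a chemokine scavenger, at 81.2, 84.9, 81.2 and 0.213 CPM (-8.57, -13.88 to -6.08, with 1 UMI in the adult). From P4 to P10 Prom1 was higher (2.22), with 83.6 CPM at P1, 21.5 CPM at P4, 100.1 CPM at P10 and 351 CPM in the adult. Mmp9, a matrix protease, was lower over that step (-2.53), with 66.1, 51.1, 8.85 and 0.427 CPM by age. Slco2a1, a prostaglandin transporter, was lower at every later age with 582, 110.2, 70.1 and 1.92 CPM. From P1 to P4, where 10.3% of genes were higher and 4.73% lower by 2-fold, 15 of 18 proliferation genes were higher, and of 20 interferon genes 7 were lower (median log2 ratio -0.80). That step also changes the pipeline version.

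Arterial and venous genes were spread over the adult cells. Of 743 cells thinned to 2000 UMIs, 199 (26.8%, 23.6 to 30.1) had at least 2 arterial genes and fewer than 2 venous ones, 244 (32.8%, 29.5 to 36.4) the reverse, 144 (19.4%) at least 2 of both and 156 (21.0%) of neither. These are ranges of a score and not types, since the venous list holds broadly expressed genes. Of genes outside both lists, Slc16a1 had 472 CPM in the arterial set and 1083 in the venous one, Tfrc 490.3 and 819.5 CPM, and Mfsd2a 326 and 207 CPM. Slco1a4, a gene of the rule and given only as a description, had 2248 and 2282 CPM. Bmx and Gkn3, arterial markers, had no UMI at P1, where the floor of 3 UMIs is 1.82 CPM, and 31.4 and 39.0 CPM in the adult. The log2 ratio of Gkn3 from P10 to the adult, 2.95, ranged from 0.87 in cells with mural genes below 500 CPM to 6.21 over alternatives.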

How the data were processed

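The authors deposited, per age, a table of UMI counts per cell barcode and gene, made with the BD Rhapsody WTA analysis pipeline (per the file headers version 1.11 for P1 and 1.8 for the others) on GRCm38 with a GENCODE annotation, without normalization and before cell filters. All values were whole numbers. A gene missing from a table was taken as 0. Cells under 1000 UMIs or 1000 genes, or over 15% mitochondrial UMIs, were removed, as in the methods of the study.

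UMIs were summed over endothelial cells per library (1938066, 2458861, 3617548 and 5157106 from P1 to adult) and given per 1000000 without mitochondrial and ribosomal protein genes. Intervals are exact Poisson for CPM, conditional binomial for ratios and Clopper-Pearson for shares. With 1 library per age no test was possible, and a gene counts as higher or lower past a 2-fold ratio among genes with a mean of at least 20 CPM. Ratios use no pseudocount, a count of 0 was set to a floor of 3 UMIs, and no ratio is given when both sums are at or under 3. Thinning drew 2000 UMIs per cell with seed 1. Doublets were marked with Scrublet in scanpy 1.11.5 (expected rate 6%) and kept. Python 3.11.15, numpy 2.4.6, scipy 1.17.1, pandas 2.3.3 and matplotlib 3.10.9 were used. Tested on simulated data for P10 to adult (8154 genes), all 100 genes changed by 1.5 and all 100 changed by 2 on the log2 scale passed 2-fold, as did 0 of the unchanged. The simulation held counting error only, with changes well past the cut-off. It had no spread between cells, mice or libraries, so it gives no rate of false calls for these data.

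Comparator cells were chosen by 5 mural or 5 microglial markers under the same threshold. Cells left out of the endothelial set by Pdgfrb could enter the mural set. Genes were named from lists and, per step, from the 10 largest rises and 10 largest falls among tested genes with at least 2-fold higher CPM than the other cells at the higher age, leaving out Gm, Rik, hemoglobin and sex-linked genes, and from the 15 markers with the largest smallest margin over other cells. The endothelial cells and gene lists were chosen with earlier results of these data known. Gene positions are from GENCODE M21 and promoters from RefSeq on GRCm38.p6, whose table lacks some genes. Alternatives were other thresholds, rule genes, filters, thinning and removal of cells, and are given in the closing section.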

Additional observations from a re-analysis of the deposited data

Results flagged for a closer look

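Of the 275 listed genes compared over the steps P4 to P10 and P10 to adult, 6 moved past 2-fold opposite to all other cells. The same count over all 8175 genes was not made, so 6 cannot be read as many or few. From P4 to P10, Cyr61, a matricellular protein, had a log2 ratio of -1.02 in endothelial cells and 1.05 in the other cells, and Isg15 one of -1.31 against 1.11. From P10 to the adult, Adm (adrenomedullin, a vasodilator peptide) had -1.29 against 1.49, Fbln5 (an elastic fiber protein) -3.46 against 1.34, Itga4 -2.75 against 1.51 and Mcam (an adhesion molecule of vessels) -2.58 against 2.01. Levels in the other cells were lower, with 1.68 and 3.48 CPM for Cyr61 and 0.115 and 0.248 for Isg15. For the later step they were 0.907 and 2.56 for Adm, 0.954 and 2.41 for Fbln5, 7.96 and 22.7 for Itga4 and 2.08 and 8.37 for Mcam. The other cells are a pool of types, with 76 microglia at P4, 800 at P10 and 1327 in the adult. Their ratios therefore do not show a change within 1 cell type. Itga4 and Mcam had higher CPM in mural cells at P10, and the share of cells with a UMI at equal depth was there 43.4% for Mcam and 59.8% for Itga4 against 13.3% and 44.3% of endothelial cells. The mural genes summed to 4617 CPM in the endothelial cells at P10 and 2820 CPM in the adult, and their part in these differences was not tested. These differences were not tested, since each age is 1 library. No age has enough samples to look for a sample far from the others.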

How the results depend on the processing

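The alternatives were run for the gene lists and for a fixed set of genes, which leaves out some genes named here. In this set 53 genes were past 2-fold from P10 to the adult, and so were 11 lists. Of these, 47 genes and 7 lists stayed past it under every alternative. Slc7a1, Kdr, Cxcl12, Gkn3, Bst2 and Slc7a5 did not, nor did the capillary, mural, microglial and neuronal lists, and the cause was not tested. From P4 to P10, 6 of 7 genes of this set (not Tap1) and 1 of 4 lists stayed past it, while the proliferation, microglial and oligodendrocyte lists did not. The medians from P10 to the adult ranged from 2.37 to 2.67 for the MHC list, 1.79 to 2.40 for interferon, -2.19 to -1.96 for sprouting, -2.18 to -1.65 for basement membrane and -4.53 to -3.36 for proliferation. The microglial median from P4 to P10 (1.35) became -0.17 under a rule with 5 other endothelial genes, chosen after seeing the data, as were the low mural RNA alternative and the 20 draws. Under that rule the endothelial shares of P4, P10 and adult were 0.826%, 2.12% and 4.15%. A threshold of 30 gave 2.35% at P10 and 4.93% in the adult, Cldn5, Flt1 and Pecam1 alone 5.03% and removal of Scrublet-marked cells 4.72% in the adult. The share with proliferation genes was 92.3%, 83.0%, 64.5% and 26.5% without thinning and, with at least 3 genes, 29.8% at P4, 14.1% at P10 and 0.673% in the adult. It was 27.5% at P4 and 18.3% at P10 with low mural RNA, 33.3% at P1 without Scrublet-marked cells, and in the adult 6.66% at the threshold of 30 and 6.79% with the 5 other genes. Each of these sets was thinned in a draw of its own. Over the 20 draws of the main set the adult share ranged from 3.50% to 6.19%. The part of the draw in these differences was not tested. Counts of genes higher and lower with a mean of at least 50 CPM were 436 and 180 (P1 to P4), 204 and 20 (P4 to P10), 345 and 369 (P10 to adult) and 639 and 586 (P4 to adult), and with no filter 3489 and 3100, 3227 and 1505, 3853 and 2872, and 5298 and 3130. Thinned cells gave 955 lower from P1 to P4 and 291 from P4 to P10, and low mural RNA 182 lower from P4 to P10. Both of these sets hold fewer UMIs than the main one. No paired analysis was possible because each age is 1 library. P1 rests on 65 cells.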

Other observations

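Other genes of endothelial cells took several courses. Spock2, a proteoglycan, hardly moved, with 4748 CPM at P1, 5518 CPM at P4, 5445 CPM at P10 and 5406 CPM in the adult. Vwf, the clotting factor stored by endothelium of larger vessels, had 207, 208, 175 and 91.1 CPM (log2 ratio -0.94 from P10 to the adult), and Ecscr, an endothelial surface protein, 278, 284, 217 and 23.9 CPM (-3.19). Vcam1, which binds leukocytes, had 1.21, 10.5, 24.6 and 56.3 CPM (1.19), and 20.4 CPM in the other cells of the adult.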
